A study of Mus musculus with 4 samples.

Results

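The prion protein gene Prnp, its downstream neighbour Prnd and the synuclein gene Sncg are described here in cultured mouse keratinocytes (KCs). They are 3 of the 25814 genes in the tables. The genes were chosen by name: Prnd and Sncg because earlier work on these same libraries had found them higher in Nfat5-Knockout KCs, and Prnp because it lies beside Prnd. The difference in Prnd and Sncg between the groups is therefore the basis of the choice, and it is given as a description with no test.

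Prnp encodes the cellular prion protein, a glycoprotein held at the cell surface by a glycosylphosphatidylinositol (GPI) anchor, whose misfolded form is the agent of prion disease. Prnd encodes doppel, a structurally related GPI-anchored protein that is known mainly from testis, and transcripts that start at the Prnp promoter and are spliced into Prnd are known from some mice that lack parts of Prnp. Sncg encodes gamma-synuclein, a small soluble protein of the synuclein family that is best known from peripheral neurons.

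Tail KCs came from adult 129/sv mice, either WT or Nfat5-Knockout, with 2 libraries in each group. NFAT5 is a transcription factor that responds to osmotic stress. The knockout was germline, the WT animals were siblings, and the tails travelled overnight on ice before the cells were prepared. Of 129sv mice, the study's methods say that body size is reduced, that the kidneys are atrophied and that blood sodium stays high. Cells of both groups were untreated and grew in serum-free medium with low calcium, and polyadenylated RNA was sequenced. The study's text speaks of a pair of WT and Nfat5-Knockout sibling mice, which can be read as a pair of each genotype or a pair in all, and the labels do not tie a library to an animal, so the spread between replicates may be technical in part.

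The libraries held 16219445 to 23494436 reads assigned to genes, and 1.79% to 1.97% of these lay in introns. RPKM is the deposited expression value, which scales exon reads by exon length and library depth. Nfat5 itself did not separate the groups: its mean level was 2.34 ± 0.940 RPKM (SD, n = 2) in WT and 2.40 ± 0.539 RPKM (SD, n = 2) in Nfat5-Knockout. The tables count whole genes, so they do not show whether the Nfat5 transcripts are intact, and the group names below are those of the labels. At the protein level, the study reports a western blot in which KCs of the knockout mice lacked NFAT5. The keratinocyte markers, of which Krt15 was low (3 to 18 reads), had a summed level of 25957 to 30100 CPM (gene reads scaled to a common library total) in WT and 25876 to 29586 CPM in Nfat5-Knockout, and 0 of 8 passed the test between the groups.

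The promoters of the 3 genes are shown because Prnp and Prnd are neighbours with separate annotated starts, and because the level of Sncg differed most between the groups. The sequences are from RefSeq on GRCm38.p6 and run 5′ to 3′ on the strand of the gene, up to the base before the start of the gene. Capitals mark matches to the motifs named afterwards. The Prnp promoter is chr2:131909678-131909927 on the plus strand, and the Prnd promoter is chr2:131950611-131950860 on the plus strand. The Sncg stretch is chr14:34374790-34374919 on the minus strand and is 130 bases long, because the RefSeq start of Sncg lies 120 bases downstream of the start in the deposited tables.
Prnp: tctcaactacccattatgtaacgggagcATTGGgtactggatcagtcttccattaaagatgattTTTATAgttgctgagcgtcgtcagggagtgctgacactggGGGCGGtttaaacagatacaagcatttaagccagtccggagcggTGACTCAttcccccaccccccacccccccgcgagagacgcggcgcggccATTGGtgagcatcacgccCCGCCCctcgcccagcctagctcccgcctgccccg
Prnd: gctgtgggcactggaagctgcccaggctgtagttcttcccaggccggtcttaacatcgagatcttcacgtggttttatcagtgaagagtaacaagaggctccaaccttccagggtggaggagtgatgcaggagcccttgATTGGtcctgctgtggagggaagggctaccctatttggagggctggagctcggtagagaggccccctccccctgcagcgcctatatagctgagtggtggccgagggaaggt
Sncg: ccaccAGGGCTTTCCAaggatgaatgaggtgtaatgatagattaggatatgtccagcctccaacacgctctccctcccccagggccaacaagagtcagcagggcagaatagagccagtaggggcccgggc

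The motifs were the core site of NFAT proteins (TGGAAA), the GC box (GGGCGG), the TATA box (TATAAA), the AP-1 site (TGANTCA), the CCAAT box (CCAAT) and the tonicity-responsive enhancer, each searched on both strands. The Prnp promoter held 2 GC boxes, 1 TATA box, 1 AP-1 site and 2 CCAAT boxes. The TATA box match is on the opposite strand of the gene, 180 bases upstream of the end of the stretch. The Prnd promoter held 1 CCAAT box and none of the other motifs, so the neighbours had only the CCAAT box in common. The Sncg stretch held 1 NFAT core, which lies inside 1 match to the tonicity-responsive enhancer on the opposite strand of the gene. Among 32851 RefSeq starts, 18.6% had the NFAT core and 4.31% the tonicity-responsive enhancer within 250 bases, and in the 130 bases next to the start the shares were 11.1% and 2.40%. The GC box was in 32.7% of the 250-base promoters, the TATA box in 12.4%, the AP-1 site in 6.75% and the CCAAT box in 33.8%. A match is a run of letters and not a bound site. The Prnp promoter was 58.8% G or C with 17 CpG pairs, the Prnd promoter 58.0% with 6, and the Sncg stretch 56.9% with 2, where the median over all starts was 52.4% G or C.

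Prnp (ENSMUSG00000079037) lies at chr2:131909928-131938429 on the plus strand (GRCm38), and its coding sequence is in the last of 3 exons, at chr2:131936430-131937191. It was among the more abundant mRNAs of the KCs, with rank 506 to 842 among all genes by RPKM. Prnp stood at 111 and 75.2 RPKM in WT replicates 1 and 2, and at 92.3 and 126 RPKM in Nfat5-Knockout replicates 1 and 2. The groups overlapped, since the lowest level was in WT replicate 2 and the highest in Nfat5-Knockout replicate 2, with the others between them. The means were 93.0 ± 25.1 RPKM (SD, n = 2) in WT and 109 ± 24.1 RPKM (SD, n = 2) in Nfat5-Knockout. The log2 fold change of Prnp was 0.25 (SE 0.22), and it did not pass the test (adjusted p = 0.658, edgeR quasi-likelihood test with Benjamini-Hochberg adjustment over 12614 genes). Its sign rested on single libraries, since the log2 fold change was -0.0055 without WT replicate 2, -0.013 without Nfat5-Knockout replicate 2 and 0.56 without WT replicate 1.

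Prnd (ENSMUSG00000027338) lies at chr2:131950861-131956130 on the plus strand, 12431 bases beyond the end of Prnp, with its coding sequence at chr2:131953016-131953552. Prnd stood at 16.7 and 18.6 RPKM in the WT libraries, and at 50.7 and 62.6 RPKM in the Nfat5-Knockout libraries. Both Nfat5-Knockout libraries were above both WT libraries, and the lower of them was 2.73 times the higher WT library. The means were 17.6 ± 1.30 RPKM (SD, n = 2) and 56.7 ± 8.44 RPKM (SD, n = 2), a ratio of 3.21. On the log2 scale of the edgeR fit the difference was 1.70 (SE 0.14), the rank 157 from the highest among the 12614 genes tested. In the order of all genes of a library by RPKM, Prnd stood at rank 3395 and 3167 in WT and at rank 1268 and 1000 in Nfat5-Knockout.

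Sncg (ENSMUSG00000023064) lies at chr14:34370274-34374789 on the minus strand and has 5 exons. Sncg stood at 10.3 and 12.6 RPKM in the WT libraries, and at 56.1 and 71.3 RPKM in the Nfat5-Knockout libraries. Its Nfat5-Knockout libraries were again both above the WT libraries, the lower of them 4.47 times the higher WT library. The means were 11.4 ± 1.59 RPKM (SD, n = 2) and 63.7 ± 10.8 RPKM (SD, n = 2), a ratio of 5.57, and the log2 difference of 2.49 (SE 0.17) had rank 64 from the highest. Sncg moved from rank 4758 and 4204 by RPKM in WT to rank 1136 and 873 in Nfat5-Knockout. Its RPKM was below that of Prnd in both WT libraries and above it in both Nfat5-Knockout libraries. The exon length of Prnd is 3211 bases and covers an intron that some Prnd transcripts splice out, so this order depends on the length used.

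Over all genes tested, 119 passed an adjusted p of 0.05 as higher in Nfat5-Knockout, which is 0.943%, and 41 as lower, which is 0.325%. Both Nfat5-Knockout libraries were above both WT libraries for 20.9% of the genes. With 2 libraries in each group, a lack of overlap is thus frequent. Prnd and Sncg were chosen for this difference, so nothing is read from their place against these shares. In bulk RNA, more cells that express a gene and more RNA per cell cannot be told apart.

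**Figure D1:**
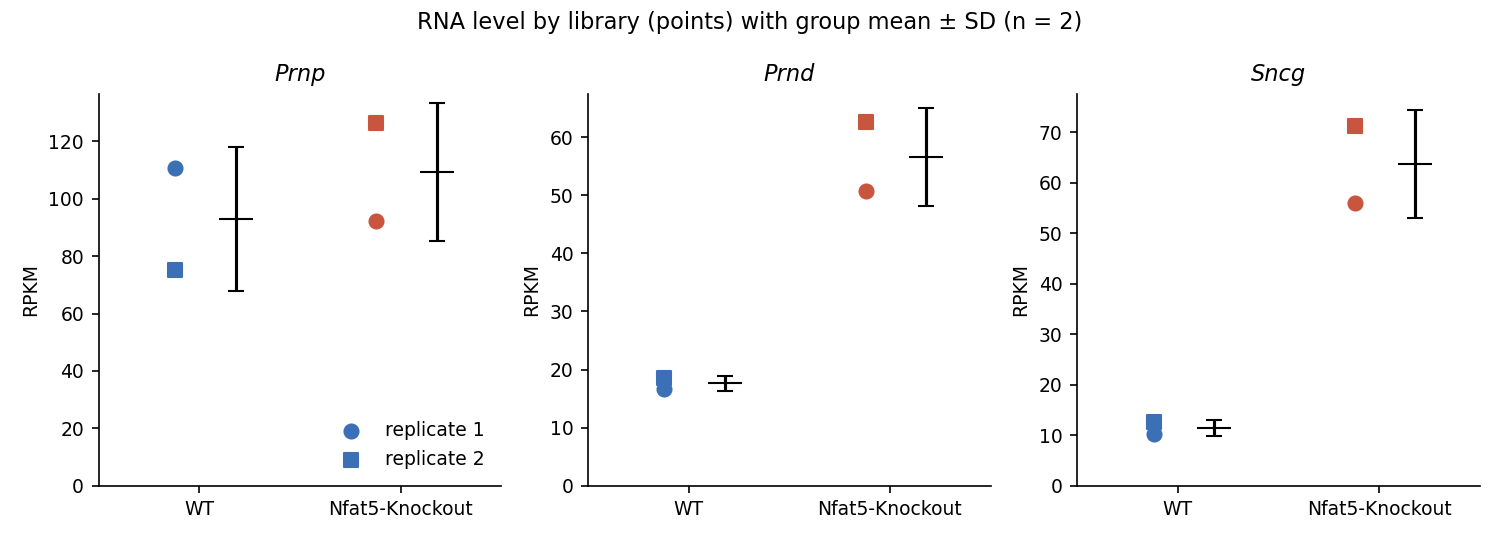
RNA level (RPKM, linear axis from 0) of Prnp, Prnd and Sncg in each library, with points for the 2 libraries of a group and bars for the group mean ± SD (n = 2). The groups overlapped for Prnp, whereas both Nfat5-Knockout libraries were above both WT libraries for Prnd (50.7 and 62.6 against 16.7 and 18.6 RPKM) and Sncg (56.1 and 71.3 against 10.3 and 12.6 RPKM).

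Because Prnd follows Prnp on the same strand, the question was whether its reads came with those of Prnp. The annotation (GENCODE M21, same build) also holds the read-through gene Prn (ENSMUSG00000098754, chr2:131909957-131956130), which begins with the first exons of Prnp, skips the coding exon of Prnp, has an exon of its own in the space between the genes, and ends with the exons of Prnd. Of the exon bases of Prnd, 97.2% are also exon bases of Prn, but only 6.64% of those of Prnp are. A read inside the shared exons can therefore not be assigned to Prnd or Prn by position, whereas a read across an exon border that only Prn or only Prnd has can be. Prn has 2 such borders of its own among 4, and Prnd has 3 among 4.

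**Figure D2:**
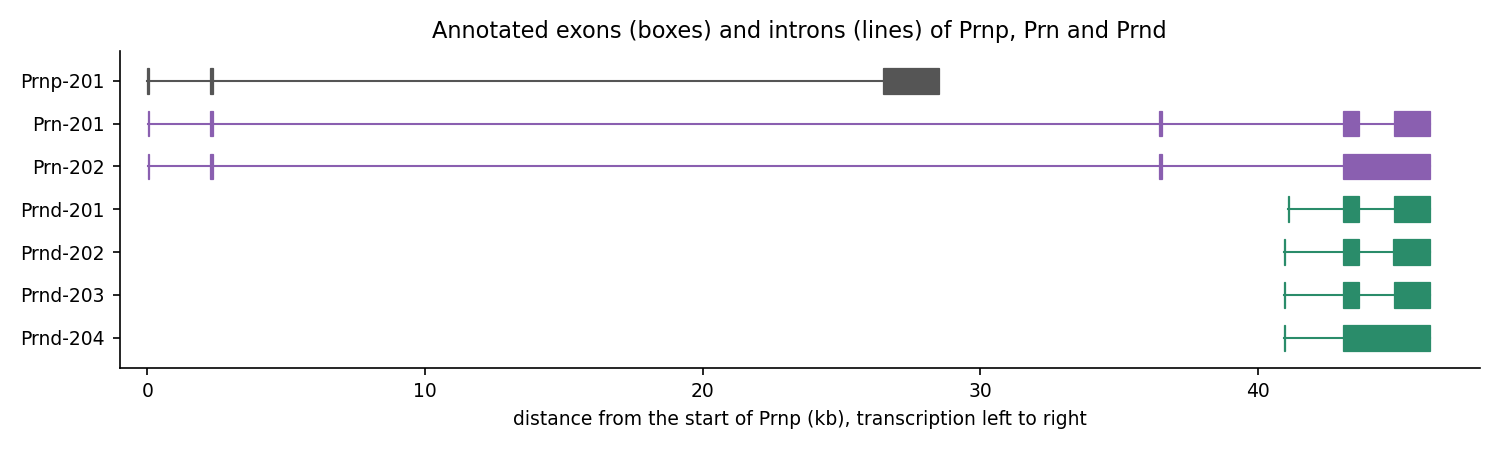
Annotated transcripts of Prnp, Prn and Prnd by distance from the start of Prnp (kb), with exons as boxes and introns as lines. Prn shares its first exons with Prnp and its last exons with Prnd, and its single exon of its own lies in the 12431 bases between the genes.

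Reads that crossed a border found in Prnd alone numbered 35 and 45 in the WT libraries, and 153 and 136 in the Nfat5-Knockout libraries. Reads that crossed a border found in Prn alone numbered 0 and 0 in WT, and 1 and 1 in Nfat5-Knockout. Reads particular to Prnd were thus more numerous in Nfat5-Knockout, whereas those particular to Prn were at 0 or 1 in every library. Of the border reads particular to Prnd or Prn, Prn took 0 of 35 in WT replicate 1, which allows a share of up to 8.57% by the floor of 3 reads and up to 10.003% by the exact 95% binomial interval. In WT replicate 2 it took 0 of 45, which allows up to 6.67% and 7.87%, respectively. In Nfat5-Knockout replicate 1 its share was 0.649% (exact 95% binomial interval 0.0164% to 3.56%, 1 of 154 reads). In Nfat5-Knockout replicate 2 it was 0.730% (0.0185% to 4.00%, 1 of 137 reads). The border reads of the read-through form were therefore few beside those of Prnd in the libraries where Prnd was high, and these limits cover counting error only. The tables do not split the border reads by border. Of the 3 borders that only Prnd has, 2 join its own first exons to the coding exon and 1 lies further downstream, so the start of each Prnd transcript is not shown.

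Intron reads were sparse at this locus. Prnp had 44 and 40 intron reads in WT and 28 and 32 in Nfat5-Knockout, which is 1.08% and 1.09% of its reads in WT and 0.573% and 0.604% in Nfat5-Knockout. Prnd had 3 and 2 intron reads in WT and 13 and 10 in Nfat5-Knockout, at most 0.335% of its reads in any library. None of the intron reads of Prnp or Prnd was uniquely placed (0 in every library), so they cannot be told apart from reads of Prn. The exon reads of Prnd over the same libraries were 893, 1320, 3921 and 3840. Some annotated transcripts of Prnd and Prn have an exon of 3122 bases that covers an intron of the other Prnd transcripts. Reads in that intron therefore count as exon reads, and the low intron share of Prnd is set in part by the annotation. Prn had 0 and 1 intron reads in WT and 1 and 6 in Nfat5-Knockout. Of these, 0, 1, 1 and 5 were placed in Prn alone, and the space between Prnp and Prnd belongs to Prn alone among the 3 genes.

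The software assigned 0 and 1 gene reads to Prn in WT, and 23 and 46 in Nfat5-Knockout. Of the exon reads of Prn in Nfat5-Knockout, 22 and 40 in number, only 1 in each library was placed uniquely. Its exon reads were at least 18.6-fold higher in Nfat5-Knockout, against a floor of 3 reads over the WT group. Prn was past the threshold in the edgeR fit, but it entered the fit only through the group where it is high, and 96.9% of its exon bases are shared with Prnd or Prnp. Its call therefore largely repeats the contrast by which Prnd was chosen, and it is given as a description with no p. The call was lost without WT replicate 1 and without either Nfat5-Knockout library, and too few reads were left to test Prn on uniquely placed reads.

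The ratio of Prnd to Prnp in exon reads per kilobase was 0.151 and 0.247 in WT, and 0.549 and 0.496 in Nfat5-Knockout. By this measure Prnd was below Prnp in every library, and nearer to it in both Nfat5-Knockout libraries. The exon length of Prnd, 3211 bases, covers an intron that some of its transcripts splice out, so the level of the ratio depends on that length. The mean ratio was 0.199 ± 0.0676 (SD, n = 2) in WT and 0.522 ± 0.0378 (SD, n = 2) in Nfat5-Knockout, a change of 2.63 times. Uniquely placed reads were only 3.41% to 3.92% of the exon reads of Prnd and 4.33% to 4.80% of those of Prnp. Nearly all of them crossed an exon border, namely 173 of 174 in Prnp and 35 of 35 in Prnd in WT replicate 1, so they are largely the border reads given above. Divided by the full exon length, their ratio of Prnd to Prnp was 0.137 and 0.182 in WT, and 0.447 and 0.392 in Nfat5-Knockout. Its level is not a ratio per kilobase, since the genes differ in how many borders are particular to them, but it can be compared between libraries, and the means differed 2.63 times. These ratios use the contrast by which Prnd was chosen and are given without a test.

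**Figure D3:**
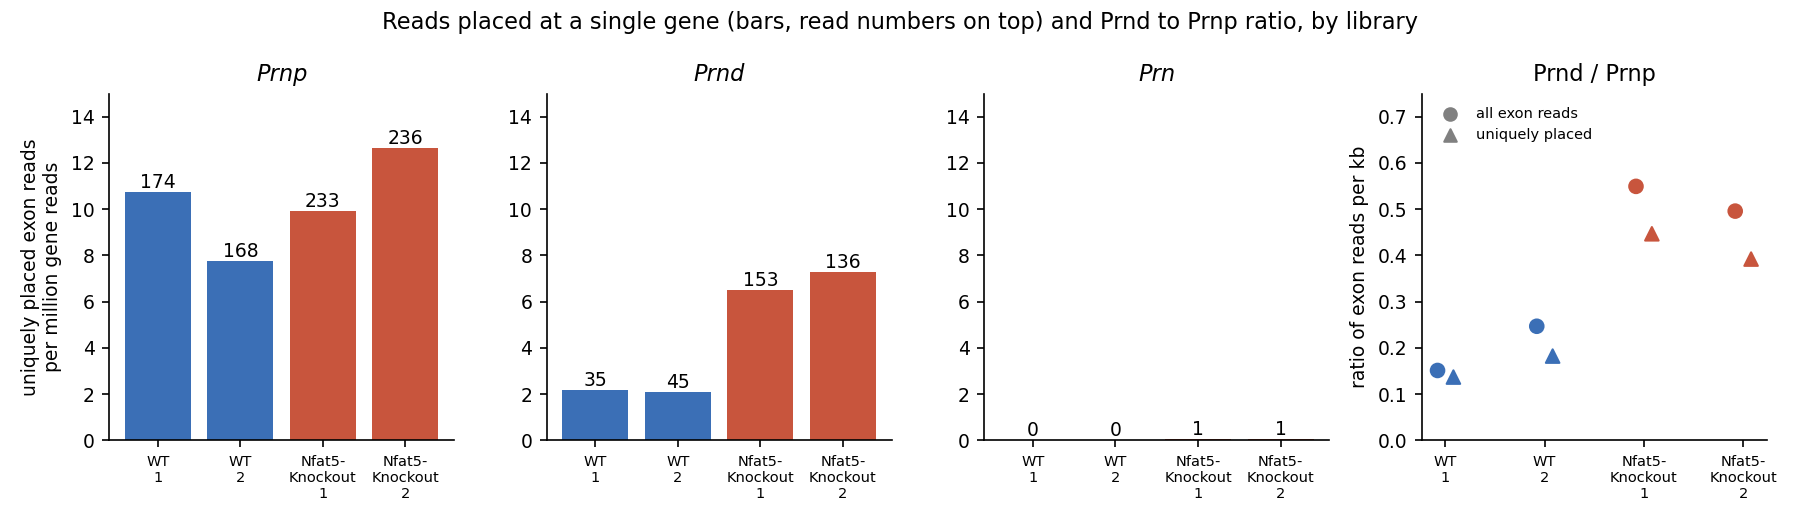
Uniquely placed exon reads of Prnp, Prnd and Prn in each library (bars, in CPM, with the number of reads on top), and the ratio of Prnd to Prnp in exon reads per kb (circles for all exon reads, triangles for uniquely placed reads over the full exon length), all on linear axes. Prnd had 35 and 45 reads in WT and 153 and 136 in Nfat5-Knockout, whereas Prn had 0 or 1 in every library.

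No such overlap affects Sncg. All of its exon reads were uniquely placed, namely 146 and 237 in WT and 1151 and 1160 in Nfat5-Knockout. Reads across exon borders of Sncg numbered 54 and 101 in WT, and 476 and 479 in Nfat5-Knockout, and its intron reads numbered 1 and 1 against 5 and 6. The spliced reads of Sncg were thus higher in both Nfat5-Knockout libraries, and intron reads made up at most 0.680% of its reads.

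The relatives reported here were silent or nearly so. Sncb, which encodes beta-synuclein, and Sprn, which encodes the prion-like protein shadoo, had 0 reads in all 4 libraries, which allows up to 3 reads or 0.128 to 0.185 CPM per library. Sncaip, which encodes the synuclein-binding protein synphilin, had 1, 4, 1 and 0 reads and was too low to test.

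The genes around both loci were examined in the same fit, within 200 kb of a member. Beside Prnp and Prnd lie Erv3, an endogenous retroviral gene with 2 reads over all libraries, Rassf2, a Ras-associated protein gene with 20 reads, and Slc23a2, a vitamin C transporter gene. Of these only Slc23a2 could be tested, and its log2 fold change was -0.12 (SE 0.17, adjusted p = 0.800, edgeR). Beside Sncg lie 9 genes, of which Gprin2, Syt15 and 9230112D13Rik were too low to test. Of the 6 tested, 0 passed with edgeR and 0 with DESeq2. With edgeR 1 of them, Ldb3, had an unadjusted p under 0.05 (14.6% of all genes had one). With limma-trend 0 of 4 passed, since Mmrn2 and Ldb3 were below its minimum mean level of 1 RPKM and were not run.

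The nearest to Sncg is Mmrn2, a matrix protein gene of the vessel wall, which is read in the opposite direction from a start 676 bases away. Mmrn2 had 15 and 17 reads in WT and 32 and 25 in Nfat5-Knockout, and its log2 fold change of 0.68 (SE 0.36) did not pass (adjusted p = 0.438, edgeR). Ldb3, which encodes a protein of the muscle Z-disc, had 2 and 5 reads in WT and 12 and 19 in Nfat5-Knockout. Its log2 fold change of 2.02 (SE 0.64) was the closest to that of Sncg but did not pass either. Ldb3 entered the fit only through the group where it is high, so it is given as a description. The others were near 0 on the log2 scale, with Glud1 (glutamate dehydrogenase) at 0.01, Bmpr1a (a bone morphogenetic protein receptor) at -0.07, Fam35a at -0.15 and Fam25c at 0.17. Within 500 kb of the members, 17 genes were tested and Prn, whose reads are mostly shared with Prnd, was the only one past the threshold, where 1.27% of all genes were.

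**Figure D4:**
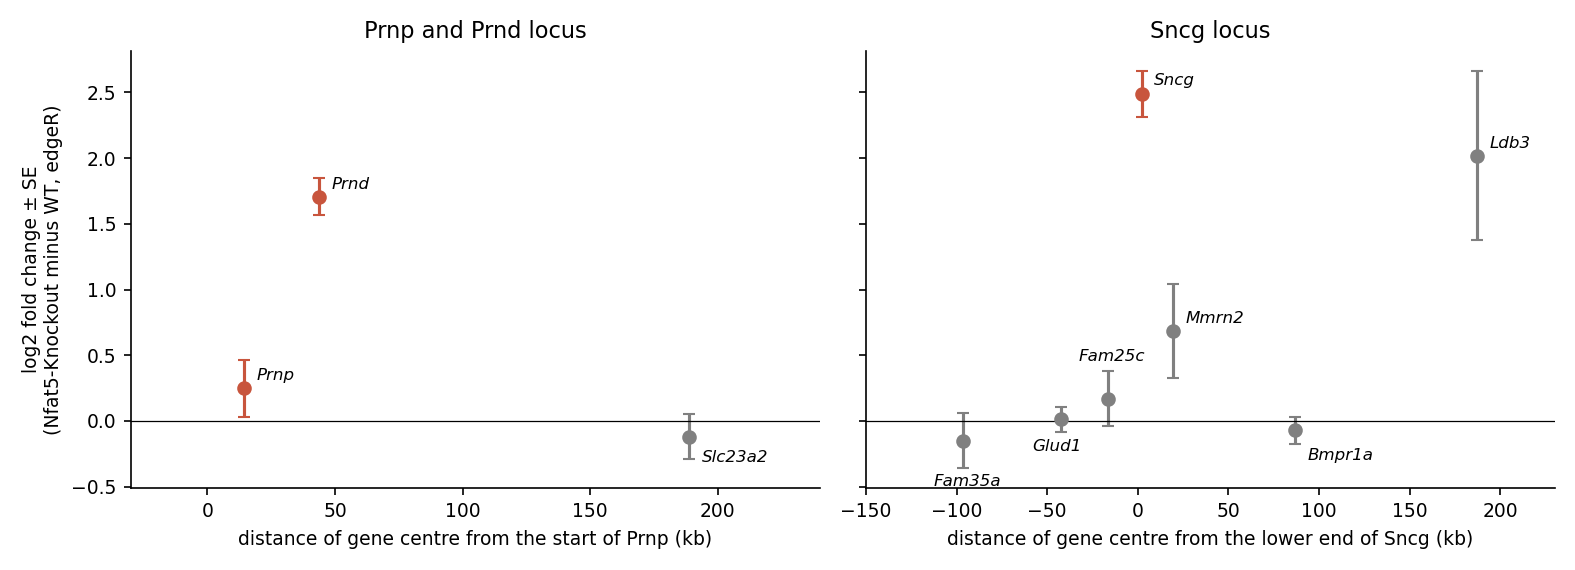
Log2 fold change ± SE (edgeR, Nfat5-Knockout minus WT) of the tested genes within 200 kb, by the distance of the gene centre from the start of Prnp or from the lower end of Sncg (kb), with Prnp, Prnd and Sncg in red. Prn is left out because it had 0 and 1 reads in WT. Slc23a2 was at -0.12, and beside Sncg the next highest was Ldb3 at 2.02 with an SE of 0.64 (2 and 5 reads in WT).

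Lists of genes that act with the prion protein, make its anchor or act with synucleins were read out of the same fit. Of 17 partners of the prion protein (proteases that shed it, receptors and signalling proteins), 16 were tested and 0 passed, with 8 above and 8 below 0 and a median log2 fold change of 0.03, where the median of all genes was -0.010. The smallest p values belonged to Cav1 (caveolin, at 264 and 219 RPKM in the WT libraries and 186 and 195 RPKM in the others, log2 fold change -0.32, adjusted p = 0.293, edgeR), App (amyloid precursor protein, 0.34, adjusted p = 0.346), Adgrg6 (a receptor for the prion protein on Schwann cells, 0.28, adjusted p = 0.350) and Ncam1 (a neural adhesion molecule, 0.44, adjusted p = 0.392). The groups did not overlap for 8 of the 16 partners, where 47.5% of all genes had groups that did not overlap.

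Of 20 genes of GPI anchor synthesis, all were tested and 0 passed, with 9 above and 11 below 0 and a median log2 fold change of -0.062. The groups did not overlap for 13 of the 20, where they did not for 47.5% of all genes. Piga, which encodes a subunit of the enzyme of the first step, stood at 5.92 and 5.66 RPKM in the WT libraries and at 4.58 and 3.73 RPKM in the Nfat5-Knockout libraries (log2 fold change -0.46, adjusted p = 0.213, edgeR). Pigh, a subunit of the same enzyme, differed in the other direction (0.56, adjusted p = 0.331, edgeR). The mannosyltransferase gene Pigv was at -0.34 (adjusted p = 0.392, edgeR) and Dpm1, which makes the mannose donor, at -0.31 (adjusted p = 0.444, edgeR), but only 1.81% of the exon reads of Dpm1 were uniquely placed.

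Of 24 partners of synucleins (chaperones, ubiquitin ligases, kinases, lysosomal and vesicle proteins), 22 were tested and 0 passed, with 13 above and 9 below 0 and a median log2 fold change of 0.10. The groups did not overlap for 10 of the 22, where they did not for 47.5% of all genes. Ctsd, the lysosomal protease that degrades synuclein, had 483 and 501 RPKM in the WT libraries, against 567 and 701 RPKM in the Nfat5-Knockout libraries (log2 fold change 0.39, adjusted p = 0.242, edgeR), with 24.9% of its exon reads uniquely placed. Atp13a2, a lysosomal polyamine transporter gene, was at -0.42 (adjusted p = 0.406, edgeR). The ubiquitin ligase genes Nedd4 and Siah1a were at 0.20 (adjusted p = 0.429, edgeR) and -0.23 (adjusted p = 0.478, edgeR). Over these lists the numbers with an unadjusted p under 0.05 were 1 of 16, 2 of 20 and 1 of 22, where 14.6% of all genes had one. With DESeq2 0 of these genes passed, and with limma-trend 0 of the 54 that reached its minimum level. With no filter on low counts, Ctsd (adjusted p = 0.0153) and Atp13a2 (adjusted p = 0.0185) passed, and Atp13a2 also passed without WT replicate 2 (adjusted p = 0.0277).

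**Figure D5:**
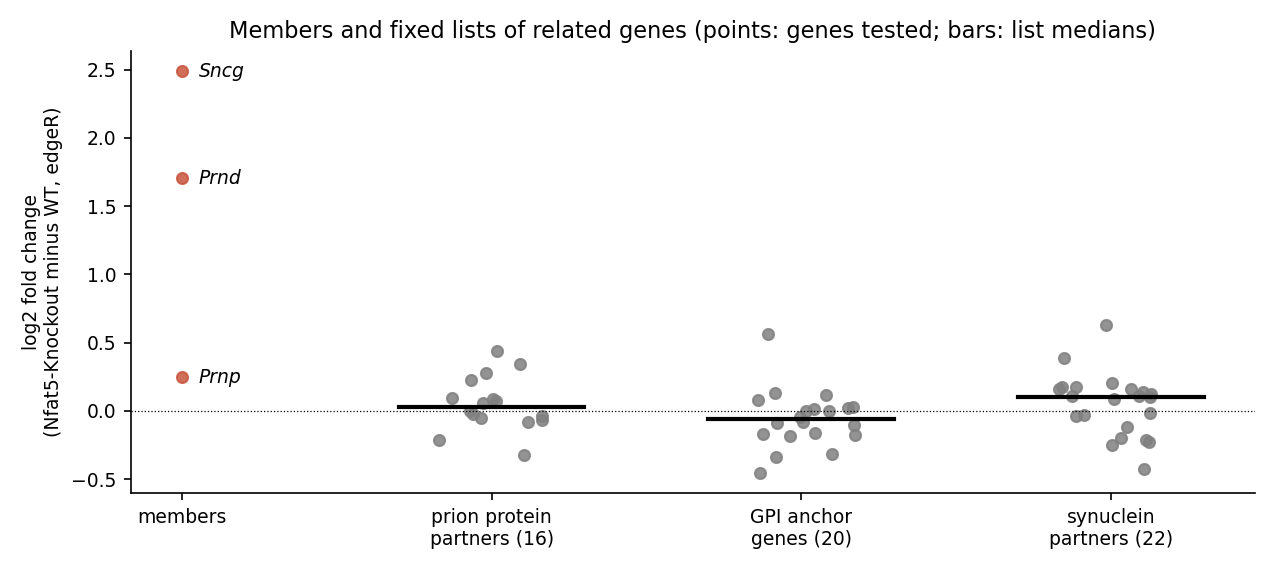
Log2 fold change (edgeR, Nfat5-Knockout minus WT) of Prnp, Prnd and Sncg and of the tested genes of the partner and GPI anchor lists, with bars at the list medians. The medians were 0.03, -0.062 and 0.10, and the genes of the lists ranged from -0.46 to 0.63.

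Gamma-synuclein is known from neurons, so markers of other cell types were read beside Sncg. Of 7 neuron markers, 3 could be tested. Nefm, a neurofilament gene, had 8 and 13 reads in WT and 68 and 88 in Nfat5-Knockout and was past the threshold as higher (log2 fold change 2.79, edgeR). Nefl, its partner, had 3 and 13 reads against 41 and 55 and was not past it (log2 fold change 2.50, edgeR). Both entered the fit only through the group where they are high, so they are given as a description with no p. Tubb3, a neuronal tubulin gene with 535 and 1009 reads against 589 and 437, was at -0.70 (adjusted p = 0.118, edgeR). The other 4 neuron markers were at or near 0 in all libraries: Elavl4 had 0 reads in all libraries, Snap25 had 1 in WT replicate 1 and 0 in the others, and Syp and Prph had at most 3 in any library. The summed neuron markers, mostly Tubb3, were at 34.0 to 48.1 CPM in WT and 29.9 to 31.2 CPM in Nfat5-Knockout, against 9.06 and 11.0 CPM of Sncg in WT and 49.2 and 62.5 CPM in Nfat5-Knockout.

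Other markers moved with the groups. Smooth muscle markers had a summed level of 275 to 335 CPM in WT and 938 to 1485 CPM in Nfat5-Knockout. Of the 5, 4 were past the threshold as higher (Acta2, Tagln, Cnn1 and Myh11), where 0.943% of all genes were. Myh11 had 1 and 1 reads in WT and 22 and 40 in Nfat5-Knockout. It entered the fit only through the group where it is high, so its call is a description. Des had 1 read in 1 WT library and 0 in the others. Melanocyte markers summed to 20.6 to 22.1 CPM in WT and 6.98 to 9.92 CPM in Nfat5-Knockout, where 1 of the 5 tested passed, Tyrp1 as lower. Mitf had 32 and 31 reads in WT and 42 and 42 in Nfat5-Knockout, and Mlana 6 and 8 against 12 and 6. Their part in the levels of Prnd and Sncg was not tested. Markers of Merkel cells (1.48 to 3.15 CPM in WT and 2.26 to 2.41 CPM in Nfat5-Knockout, Atoh1 at 0), adipocytes (0.185 to 0.493 CPM and 0.268 to 0.553 CPM, Lep at 0), endothelial cells (6.29 to 7.15 CPM and 5.62 to 6.06 CPM), fibroblasts (2.64 to 3.88 CPM and 3.62 to 6.86 CPM) and immune cells (3.08 to 5.97 CPM and 4.93 to 5.58 CPM) were low. Few of them could be tested, namely 1 of 5 Merkel, 0 of 5 adipocyte, 3 of 6 endothelial, 2 of 6 fibroblast and 2 of 5 immune markers, and 0 of those tested passed. Schwann cell markers summed to 44.3 to 60.5 CPM and 39.2 to 42.8 CPM, mostly Mbp, and Sertoli and germ cell markers to 300.1 to 326 CPM and 290 to 320 CPM, mostly Sox9. Of these, 1 Schwann cell marker and 2 Sertoli and germ cell markers were tested and 0 passed.

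The genes whose profile over the 4 libraries was most like that of each member were found by the distance between log2 CPM values centred on the mean of each gene. Nearest to Prnp were Zrsr1 (distance 0.0501, with 6.14% of its exon reads unique), Zfp629 (0.0647) and Sdr42e1 (0.0648), and 1947 genes lay within 0.5. Nearest to Prnd were Arhgap40 (0.139), Robo1 (0.145), a guidance receptor gene, and Gp1bb (0.158), and 56 genes lay within 0.5. Nearest to Sncg were Gsdma (0.215), a gasdermin gene of the epidermis, Cdkn2a (0.224), a cell cycle inhibitor gene, and Ano3 (0.235), and 19 genes lay within 0.5. Cdkn2a was also close to Sncg in level, with 11.8 and 14.6 RPKM in the WT libraries, against 53.8 and 72.0 RPKM in the Nfat5-Knockout libraries, whereas Arhgap40 and Robo1 were at or below 1.02 RPKM in every library. Nfat5-Knockout replicate 2 was the highest library for all 3 members.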

How the data were processed

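Poly(A)-selected RNA of KCs in 4 libraries (2 WT, 2 Nfat5-Knockout, groups from the labels) was sequenced as single reads of 59 bases. The authors trimmed adapters and mapped the reads to GRCm38 with CLC Genomics Workbench 12.0. The authors deposited read counts per gene (total, exon, intron, exon border and uniquely placed reads) and RPKM values. How reads shared by overlapping genes were divided is not given in the sources used here, nor is strand. Total gene counts were tested with edgeR 4.0.16 (filterByExpr, TMM, quasi-likelihood test, 2-sided, genotype as the only term, Benjamini-Hochberg adjustment over 12614 genes) in R 4.3.3. DESeq2 1.42.0, limma 3.58.1 (limma-trend, genes with a mean of at least 1 RPKM, a limit set after the data were seen), other scalings, filters and read types, a replicate block and leaving out each library were alternatives. The scripts were tested on simulated data. Libraries of a group differed beyond sampling noise (chi-square per degree of freedom 16.7 in WT and 17.3 in Nfat5-Knockout). A count of 0 was read as up to 3 reads, and at this depth intervals cover counting error only.

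The members and lists were chosen with earlier results of these data known. The text names the members, their families, all genes within 200 kb, the genes of each partner list past the threshold or else the 4 with the smallest p, and the 3 genes most like each member. Neighbours and exon borders are from GENCODE M21 and promoters from RefSeq. Some genes of the lists are not reported here, and Grm5 and Snap25 were too low to test.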

Additional observations from a re-analysis of the deposited data

How the results depend on the processing

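Sncg stayed between 2.29 and 2.67 and Prnd between 1.53 and 1.86 on the log2 scale over 14 alternatives, the lowest value of Prnd being that without Nfat5-Knockout replicate 2 (1.53). Prnp did not pass the threshold in any of them. Its log2 fold change ran from -0.013 to 0.56 over the fits that left out a library, and it was below 0 without WT replicate 2 (-0.0055) and without Nfat5-Knockout replicate 2 (-0.013). The mean ratio of Prnd to Prnp in Nfat5-Knockout was 0.419 with uniquely placed reads.

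In the fit reported 160 genes passed the threshold, against 1137 with no filter on low counts and 426 with DESeq2. Leaving out a library gave 16 to 478 genes (268 without WT replicate 1, 478 without WT replicate 2, 31 without Nfat5-Knockout replicate 1 and 16 without Nfat5-Knockout replicate 2), where the lone sample of a group is assumed to vary like the other group. In the lists of related genes the number was 1 (Prn), with 3 when there was no filter, 0 with at least 10 reads in every library, 0 with limma-trend at a pseudocount of 1 or 0.1, 0 with uniquely placed exon reads, and 0 to 2 when a library was left out. Prn had too few reads to be tested with the minimum of 10 reads, with limma-trend or with uniquely placed reads. The cause of the other changes was not tested. With a replicate block, 132 genes passed, 109 of them among the 160, Prnp stayed uncalled (log2 fold change 0.26), and Prn remained the only gene of the lists past the threshold. Whether the replicate numbers pair the libraries is not given by the labels. Deviations of libraries with the same number did not go together (r = -0.065 across 12614 genes, which are not independent). With 2 libraries in each group this cannot show that the libraries are unpaired. With 2 libraries in each group, and a few uniquely placed reads in Prn, small shares of read-through transcripts could not be measured at this depth.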
